A study of Phaseolus vulgaris with 18 samples.

Results

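The genes described here are those of the common bean (Phaseolus vulgaris) whose description in the deposited table names a small heat shock protein or an HSP20-like chaperone, leaving out DnaJ proteins, and that had at least 10 counts in at least 3 of the 18 libraries. This rule gave 51 of the 25124 genes in the table. 53 descriptions matched, and the 2 left out, Phvul.004G087500 and Phvul.008G227900, reached at most 6 and 4 counts. Just inside the threshold stood Phvul.004G018500, with 10 counts in 6 libraries, and Phvul.002G212000, with 10 counts in 7. The rule used no difference between groups, but 3 heat-annotated members (defined below), Phvul.002G212000, Phvul.004G018500 and Phvul.011G016200, met it through green libraries alone, having 10 counts in 1, 0 and 1 of the golden ones. Low golden values of these 3 are in part set by the rule, so no p-value between the lines is given for them. Any fold the text gives for them is a bound that the rule also shapes. Counts of heat-annotated members called between the lines are also given without them.

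RNA was sequenced from pod walls of the golden line A18-1, whose pods go from green to gold with age, a trait the study assigns to the gene pv-ye, and of the green line Renaya, whose pods stay green until ripening. Both grew in a climate chamber without treatment, and each was sampled at 10, 14 and 18 days after flowering (DAF), with 3 libraries per line and age that the design text calls independent biological repeats. The question was how the lines differ while the pods develop, and how they are otherwise related is not stated in the sources used here. One label field gives leaf and the extraction text an adipose type. Of 3 genes described as AGAMOUS-like 8, whose Arabidopsis counterpart FRUITFULL patterns the fruit wall, Phvul.009G203400 stood at 107 ± 17.9 FPKM in golden and 53.0 ± 13.01 FPKM in green pods at 10 DAF (SD, n = 3 each), and in the later groups its mean ran from 41.7 to 175 FPKM. The other 2, Phvul.008G027800 and Phvul.004G042450, averaged 0.253 and 0.0513 FPKM in golden and 1.01 and 0.142 FPKM in green pods at 10 DAF, and at most 3.41 FPKM in any group.

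Small heat shock proteins are chaperones that need no ATP. They share the alpha-crystallin domain, assemble into oligomers, bind proteins that begin to unfold and hold them until HSP70 and HSP101 refold them. Plants make forms for the cytosol, nucleus, plastid, mitochondrion, endoplasmic reticulum and peroxisome, most of them scarce in unstressed leaves and strongly induced by heat through heat shock factors, and some made during seed maturation. The same fold occurs in p23, a co-chaperone of HSP90, and in other proteins that heat does not induce.

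The table's annotation splits the members accordingly. 35 of the 51 belong to the HSP20 orthology group (K13993), and 29 of those also carry the gene ontology term for the response to heat. These 29 are called heat-annotated below. Of the other 22, 6 are in the HSP20 group without that term and 16 are outside it, among them 3 in the orthology group of p23 (K15730). Among those 16, Phvul.001G062800 carries the heat term but is listed without an orthology group, so it is not counted as heat-annotated. The split was made after values had been seen, so counts over it are descriptions. Of the heat-annotated members 11 are placed in the cytoplasm by the table, 4 in the nucleus, 3 in the chloroplast, 3 in the mitochondrion, 2 in the endoplasmic reticulum and 1 in the peroxisomal matrix, and 5 have no such place. The number after Phvul. in a name is the chromosome, as it was in 7933 of the 7933 table entries with coordinates. 20 of the matching genes lie in 7 runs of neighbouring locus numbers, the longest being the 6 genes from Phvul.002G231300 to Phvul.002G231800 on chromosome 2. Reads of near-identical neighbours may have been split between them, 2 members are loci that join several genes, and strand was not stated.

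Total counts ran from 48757139 to 74377200 per library. The summed FPKM (fragment counts scaled by transcript length and library size, as deposited) of the 29 heat-annotated members was 1541, 1309 and 1033 in golden pods at 10 DAF, against 3519.7, 3759 and 5089.6 in green pods. At 14 DAF it was 869.6, 2072 and 1223 in golden and 3368, 4542 and 11504 in green pods, and at 18 DAF 5797, 2995 and 3215 in golden and 1426, 1321 and 4111 in green pods. The lines did not overlap at 10 or 14 DAF, with green pods higher, and overlapped at 18 DAF. Replicate 3 of the green line was the highest of its group for 17 of the 29 members at 10 DAF, 27 of 29 at 14 DAF and 19 of 29 at 18 DAF. In each golden group 1 replicate was the highest for 15 or 17 of the 29. Results that turn on 1 library are given with and without it. In whole pod walls, fewer cells making an RNA and less of it per cell cannot be told apart.

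**Figure D1:**
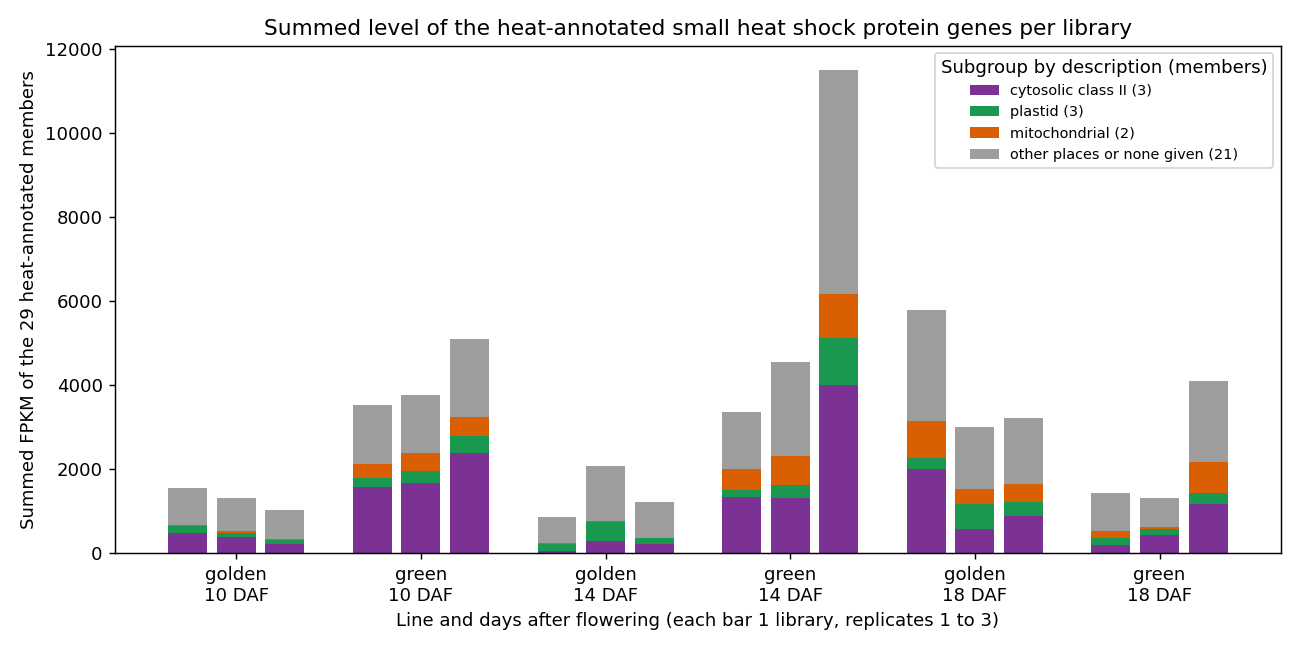
Summed FPKM of the 29 heat-annotated members in each of the 18 libraries, stacked by subgroup, with golden and green pods side by side at each age. Golden libraries lie between 869.6 and 2072 at 10 and 14 DAF, and every green library of those ages is at 3368 or higher.

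The other 22 members were flatter. The summed FPKM of all 22 averaged 873 ± 69.6 in golden and 1286 ± 74.7 in green pods at 10 DAF, 853 ± 18.6 and 1346 ± 133 at 14 DAF, and 918 ± 100.7 and 1039 ± 130 at 18 DAF, golden given before green throughout (SD, n = 3 each). By contrast the heat-annotated members averaged 1294 ± 254 in golden and 4123 ± 846 in green pods at 10 DAF, a 3.19-fold difference of the means, and 1388 ± 618 in golden against 6471 ± 4398 in green pods at 14 DAF, a 4.66-fold difference. At 18 DAF the order turned, with 4002 ± 1558 in golden and 2286 ± 1581 in green pods, and the libraries of the lines overlapped.

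Comparing the lines at 10 DAF, the youngest age, asks what already sets them apart there. Among heat-annotated genes called at this age, most were lower in the golden line, by 4.61-fold to 106-fold where golden libraries held counts. They were class II, mitochondrial, plastid and cytoplasmic genes, while genes placed in the endoplasmic reticulum, nucleus and peroxisome were not called. Golden libraries still lay wholly below green ones for Phvul.004G129400 of the endoplasmic reticulum, at 153, 112 and 82.1 against 181, 206 and 282 FPKM. The same held for peroxisomal Phvul.008G237000, at 38.7, 28.96 and 35.1 against 61.7, 64.8 and 69.1 FPKM. Libraries of the lines overlapped for Phvul.007G113700, also of the endoplasmic reticulum, and for the genes of the nucleus. Of the 51 members 6 were called higher in the golden line and 12 lower (edgeR quasi-likelihood test, adjusted p under 0.05), where 17.1% of all tested genes were higher and 15.5% lower. Among the heat-annotated members 2 of 29 were higher and 9 lower, with a median log2 fold change of -1.23, against 0.02 over all genes tested. Without the 3 members that met the rule through green libraries alone, 2 of 26 were higher and 8 lower, with a median of -0.93. Among the other 22, 4 were higher and 3 lower, with a median of 0.47, and their 7 calls became 4 without golden replicate 2 or without green replicate 2. Golden libraries lay wholly below green ones for 17 of the 29 heat-annotated members and wholly above for 3, where 29.6% of all genes lay below and 30.2% above. Without the same 3 members these were 14 and 3 of 26.

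Cytosolic class II proteins, which form their own oligomers in heat-stressed cytosol, included the gene with the largest fold among those with counts in both lines. Phvul.001G039700 had 2.66, 2.85 and 3.14 FPKM in golden pods at 10 DAF, against 239, 312 and 386 FPKM in green pods. The groups lay far apart, and the gene was 106-fold lower (log2 -6.73, SE 1.16, adjusted p = 6.8e-04). Phvul.009G080200, the most abundant member of all, had 399, 340.3 and 183 FPKM in golden pods and 1179.7, 1265 and 1838 FPKM in green pods. It was 4.61-fold lower (log2 -2.21, SE 0.69, adjusted p = 0.025), and the call ended without golden replicate 2 (adjusted p = 0.0608), golden replicate 3 (adjusted p = 0.101) or green replicate 3 (adjusted p = 0.0732), in a range of 0.00119 to 0.101 over all alternatives. The third class II gene, Phvul.001G039800, lies beside the first and was not called at 10 DAF, at 69.4, 38.4 and 35.5 FPKM in golden and 152, 103 and 168 FPKM in green pods (log2 -1.56, SE 0.77, adjusted p = 0.14).

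Of the 3 heat-annotated members of the mitochondrion 2 were called lower, 1 of them among the 3 set apart above, and of the 3 of the plastid 1 was called lower. Phvul.011G016100, described as a mitochondrial small heat shock protein, had 18.3, 41.1 and 17.8 FPKM in golden pods and 333, 419.7 and 465 FPKM in green pods (15.7-fold lower, log2 -3.97, SE 0.76, adjusted p = 0.0015). Its neighbour Phvul.011G016200 has the same description and was listed at 0 in all 3 golden libraries, against 1.44, 2.16 and 0.697 FPKM in green ones, a level at least 67.2-fold lower on a floor of 3 counts over the golden libraries. It is one of the members that met the rule through green libraries alone. The third mitochondrial gene, Phvul.010G155300, had 6.55, 3.87 and 1.99 FPKM in golden and 3.56, 5.001 and 4.27 FPKM in green pods, with overlap, and was not called (log2 -0.04, SE 0.77, adjusted p = 0.98). Phvul.001G258200, an HSP21 of the plastid, which in Arabidopsis protects photosynthetic membranes under heat, had 17.7, 14.8 and 21.4 FPKM in golden and 114, 160.1 and 163 FPKM in green pods (8.02-fold lower, log2 -3.00, SE 0.62, adjusted p = 0.0025). The other 2 plastid genes were not called. Phvul.009G046500 had 162, 75.2 and 65.6 FPKM in golden and 87.3, 108 and 202 FPKM in green pods, with overlap (log2 -0.38, SE 0.68, adjusted p = 0.7).

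Of the 11 members placed in the cytoplasm 5 were lower at 10 DAF and 1 higher. In the run on chromosome 2, Phvul.002G231500 had 17.2, 15.1 and 9.94 FPKM in golden and 192, 195 and 253 FPKM in green pods (log2 -3.91, SE 1.00, adjusted p = 0.0087). The locus that joins Phvul.002G231400, Phvul.002G231600 and Phvul.002G231800 had 121, 94.8 and 89.7 FPKM in golden and 446, 407 and 567 FPKM in green pods (log2 -2.21, SE 0.61, adjusted p = 0.013). That call ended without golden replicate 3 (adjusted p = 0.0527), in a range of 1.6e-04 to 0.0527. Phvul.002G231700 had 47.8, 33.1 and 37.4 FPKM in golden and 178, 180.1 and 239.9 FPKM in green pods without overlap but did not pass (log2 -2.32, SE 0.95, adjusted p = 0.073). The first gene of the run, Phvul.002G231300, stayed under 1 FPKM in every library at this age, with 0.858, 0.360 and 0.269 FPKM in golden and 0.445, 0.701 and 0.645 FPKM in green pods. The run thus held abundant genes beside one near the detection limit, and every abundant one stood lower in golden libraries without overlap. Elsewhere in the genome, cytoplasmic Phvul.010G125300 had 0.449, 0.624 and 0.842 FPKM in golden and 13.3, 17.4 and 13.7 FPKM in green pods (22.3-fold lower, log2 -4.48, SE 0.78, adjusted p = 7.4e-04).

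A pair of neighbours on chromosome 8 went opposite ways. Phvul.008G228100 had 1.66, 2.29 and 4.04 FPKM in golden and 34.6, 24.2 and 30.7 FPKM in green pods and was 11.1-fold lower in the golden line (log2 -3.47, SE 0.84, adjusted p = 0.0061). Phvul.008G228000, the next locus, had 135, 79.6 and 61.3 FPKM in golden and 8.67, 5.37 and 8.25 FPKM in green pods and was 12.4-fold higher (log2 3.63, SE 1.09, adjusted p = 0.02). The higher call ended without golden replicate 1 (adjusted p = 0.0527), green replicate 1 (adjusted p = 0.0538), green replicate 2 (adjusted p = 0.0736) or green replicate 3 (adjusted p = 0.0642), in a range of 3.0e-04 to 0.0736. The only other heat-annotated member higher in the golden line was Phvul.008G112700, for which the table gives no place, with 136, 247 and 214 FPKM in golden and 33.5, 53.7 and 57.1 FPKM in green pods (log2 2.06, SE 0.47, adjusted p = 0.0044).

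Called members outside the heat-annotated set had folds of at most 3.57 at 10 DAF. Phvul.001G206400, of the p23 orthology group, is the most abundant of them and had 416, 450.2 and 337 FPKM in golden and 826, 954 and 966 FPKM in green pods (2.27-fold lower, log2 -1.18, SE 0.18, adjusted p = 3.2e-04). The other 2 genes of that group, Phvul.004G073200 and Phvul.004G088000, were not called between the lines at any age. Phvul.007G181300, placed in the nucleus and low throughout, had 0.480, 0.207 and 0.710 FPKM in golden and 1.13, 2.08 and 1.93 FPKM in green pods (log2 -1.84, SE 0.45, adjusted p = 0.0064). In the other direction, 2 of 3 neighbouring genes on chromosome 7 placed in the mitochondrion were higher. Phvul.007G156900 had 143, 171 and 165 FPKM in golden and 97.6, 82.6 and 79.6 FPKM in green pods (log2 0.89, SE 0.17, adjusted p = 0.0014). Phvul.007G157000 had 18.5, 19.1 and 20.4 FPKM in golden and 13.8, 14.4 and 13.998 FPKM in green pods (log2 0.47, SE 0.11, adjusted p = 0.0055). Phvul.004G094700, placed in the cytoplasm, had 1.08, 1.22 and 1.09 FPKM in golden and 0.610, 0.569 and 0.436 FPKM in green pods (log2 1.08, SE 0.33, adjusted p = 0.021), a call that ended without golden replicate 2 (adjusted p = 0.0555), golden replicate 3 (adjusted p = 0.0504), green replicate 2 (adjusted p = 0.063) or green replicate 3 (adjusted p = 0.0864), in a range of 0.00254 to 0.0864.

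**Figure D2:**
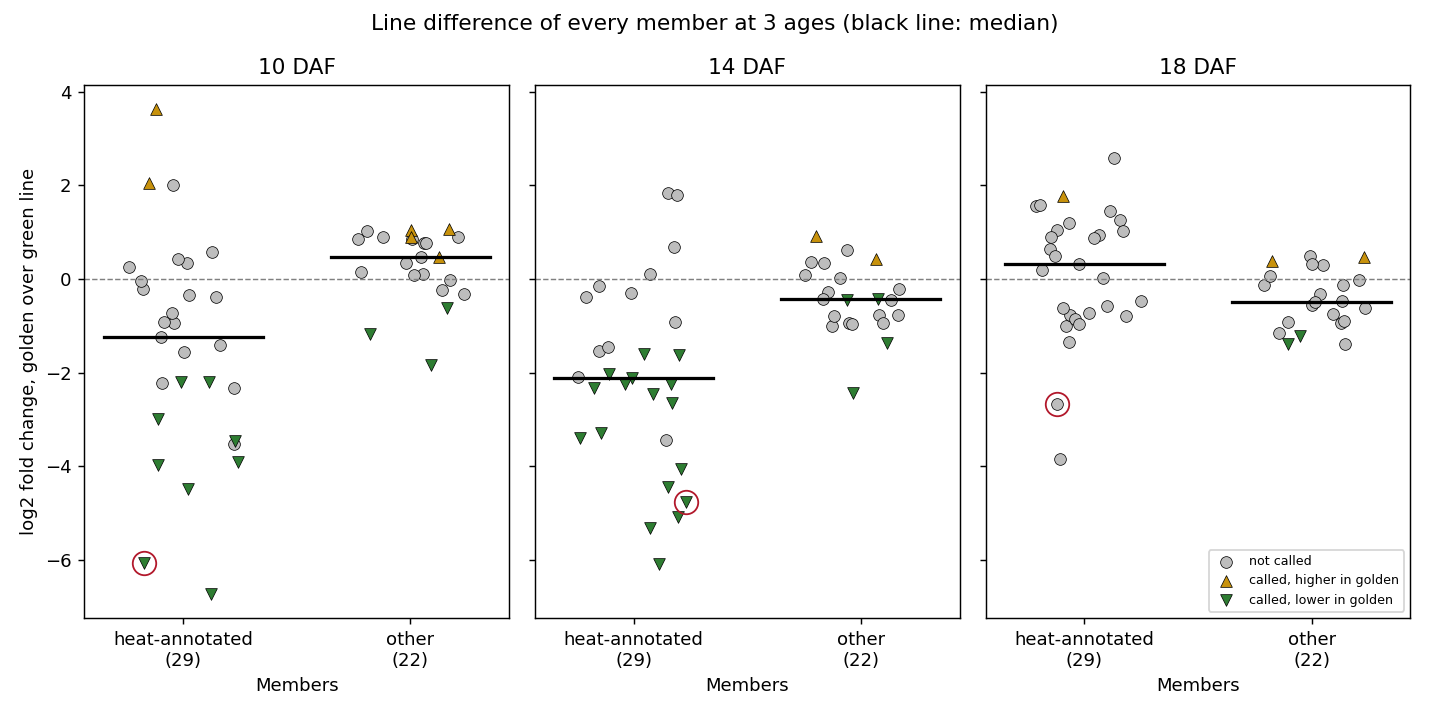
log2 fold change, golden over green line, of every member at 10, 14 and 18 DAF, with the heat-annotated members left of the others, triangles for called members and a black line at the median. Ringed points are genes listed at 0 in all golden libraries of that age, drawn at the least fold that a floor of 3 counts allows. The heat-annotated medians lie at -1.23, -2.12 and 0.32.

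At 14 DAF, the same comparison found more heat-annotated genes lower in the golden line. Of the 51 members 2 were higher and 21 lower, where 20.4% of all genes were higher and 21.2% lower. Of the 29 heat-annotated members 0 were higher and 17 lower, with a median log2 fold change of -2.12 against -0.01 over all genes. Without the 3 members that met the rule through green libraries alone, 0 of 26 were higher and 16 lower, with a median of -2.07. With all 29 but without green replicate 3 they were 2 higher and 11 lower with a median of -1.40. Of the other 22, 2 were higher and 4 lower. The calls reached every annotated place: 7 of 11 cytoplasmic members, 2 of 3 in the chloroplast, 2 of 3 in the mitochondrion, 1 of 2 in the endoplasmic reticulum, 1 of 4 in the nucleus and the 1 in the peroxisome were lower.

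The class II gene Phvul.001G039700 had 2.85, 7.51 and 4.66 FPKM in golden and 167, 309 and 567 FPKM in green pods at 14 DAF (68.5-fold lower, log2 -6.10, SE 1.12, adjusted p = 8.7e-04). Phvul.009G080200 had 42.5, 256 and 183 FPKM in golden and 1039, 875 and 3216 FPKM in green pods (log2 -3.40, SE 0.73, adjusted p = 0.0023). Phvul.001G039800 now passed, with 5.47, 32.8 and 40.2 FPKM in golden and 137, 126 and 227 FPKM in green pods (log2 -2.64, SE 0.80, adjusted p = 0.017). Its call ended without golden replicate 1 (adjusted p = 0.0517), in a range of 0.00117 to 0.0517, so that all 3 class II genes were called lower at this age. The mitochondrial Phvul.011G016100 had 15.001, 31.8 and 19.6 FPKM in golden and 519, 686 and 1057 FPKM in green pods (34.1-fold lower, log2 -5.09, SE 0.81, adjusted p = 3.5e-04), with no overlap. Its low neighbour Phvul.011G016200 had 0, 0.133 and 0.434 FPKM in golden and 0.461, 0.671 and 1.41 FPKM in green pods. Phvul.010G155300 had 1.40, 11.8 and 2.70 FPKM in golden and 6.17, 9.84 and 60.9 FPKM in green pods (log2 -2.24, SE 0.80, adjusted p = 0.035). Green replicate 3 was far above the other libraries, and the call ended without golden replicate 1 (adjusted p = 0.111), golden replicate 3 (adjusted p = 0.107) or green replicate 3 (adjusted p = 0.456), in a range of 0.00667 to 0.456.

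In the cytoplasmic run on chromosome 2, Phvul.002G231500 had 3.17, 17.4 and 6.15 FPKM in golden and 161, 352 and 571 FPKM in green pods (40.03-fold lower, log2 -5.32, SE 1.07, adjusted p = 0.0016). Phvul.002G231700 had 4.73, 37.4 and 17.1 FPKM in golden and 178, 395 and 739 FPKM in green pods (21.9-fold lower, log2 -4.45, SE 1.04, adjusted p = 0.0039). The joint locus of Phvul.002G231400 had 17.1, 109 and 59.4 FPKM in golden and 344, 457 and 1017 FPKM in green pods (log2 -3.28, SE 0.63, adjusted p = 0.0012). In each of these, golden replicate 1 was the lowest and green replicate 3 the highest library. The first gene of the run, Phvul.002G231300, was low here too, with 0.212, 0.112 and 0.292 FPKM in golden and 0.424, 0 and 0.238 FPKM in green pods. Phvul.010G125300 had 2.72, 2.64 and 0.933 FPKM in golden and 19.2, 30.7 and 56.9 FPKM in green pods (log2 -4.06, SE 0.75, adjusted p = 9.1e-04). The joint locus of Phvul.009G152400 and Phvul.009G152500 on chromosome 9 had 15.03, 82.8 and 27.4 FPKM in golden and 83.1, 167 and 445 FPKM in green pods (log2 -2.45, SE 0.67, adjusted p = 0.0097). Its call ended without green replicate 3 (adjusted p = 0.0581), in a range of 3.8e-04 to 0.0581.

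In the plastid, Phvul.001G258200 had 54.3, 53.8 and 29.4 FPKM in golden and 58.9, 126 and 381 FPKM in green pods (log2 -2.02, SE 0.60, adjusted p = 0.015). The groups did not overlap, and the call ended without golden replicate 3 (adjusted p = 0.053) or green replicate 3 (adjusted p = 0.128), in a range of 0.00161 to 0.128. The abundant plastid gene Phvul.009G046500 had 104, 349 and 75.97 FPKM in golden and 60.6, 93.8 and 512 FPKM in green pods and was not called. Of the endoplasmic reticulum pair, Phvul.004G129400 had 24.9, 138 and 71.02 FPKM in golden and 238, 204 and 739.5 FPKM in green pods (log2 -2.32, SE 0.55, adjusted p = 0.0044). Phvul.007G113700 had 22.7, 232 and 53.6 FPKM in golden and 64.01, 104 and 751 FPKM in green pods, with wide overlap (log2 -1.54, SE 0.90, adjusted p = 0.18). The peroxisomal Phvul.008G237000 had 51.4, 43.8 and 66.4 FPKM in golden and 77.6, 197 and 215 FPKM in green pods (log2 -1.59, SE 0.42, adjusted p = 0.0075).

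The members that were higher in golden pods at 10 DAF did not all stay higher. Phvul.008G228000 had 107, 150.4 and 191 FPKM in golden and 4.96, 6.48 and 122 FPKM in green pods at 14 DAF, where green replicate 3 alone was high (log2 1.79, SE 1.01, adjusted p = 0.17). Phvul.008G112700 had 234, 381 and 299.8 FPKM in golden and 92.9, 146 and 336 FPKM in green pods (log2 0.68, SE 0.45, adjusted p = 0.24). The mitochondrial Phvul.007G156900 stayed higher in the golden line, at 169, 189 and 162 FPKM against 88.7, 84.2 and 97.1 FPKM in green pods (log2 0.93, SE 0.17, adjusted p = 8.7e-04), and so did Phvul.007G157000, at 23.98, 23.3 and 22.6 FPKM against 14.5, 17.7 and 19.5 FPKM (log2 0.42, SE 0.11, adjusted p = 0.0074). The p23-type Phvul.001G206400 stayed lower, at 321, 310.001 and 386 FPKM in golden and 853, 834 and 927 FPKM in green pods (log2 -1.38, SE 0.18, adjusted p = 1.1e-04), as did Phvul.007G181300, at 0.449, 0.371 and 0.679 FPKM in golden and 2.05, 3.30 and 2.82 FPKM in green pods (log2 -2.45, SE 0.45, adjusted p = 9.3e-04). In all, 10 members were lower in the golden line at both 10 and 14 DAF, 8 of them heat-annotated. Calls at both ages were not counted over all genes, so this count is a description only.

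**Figure D3:**
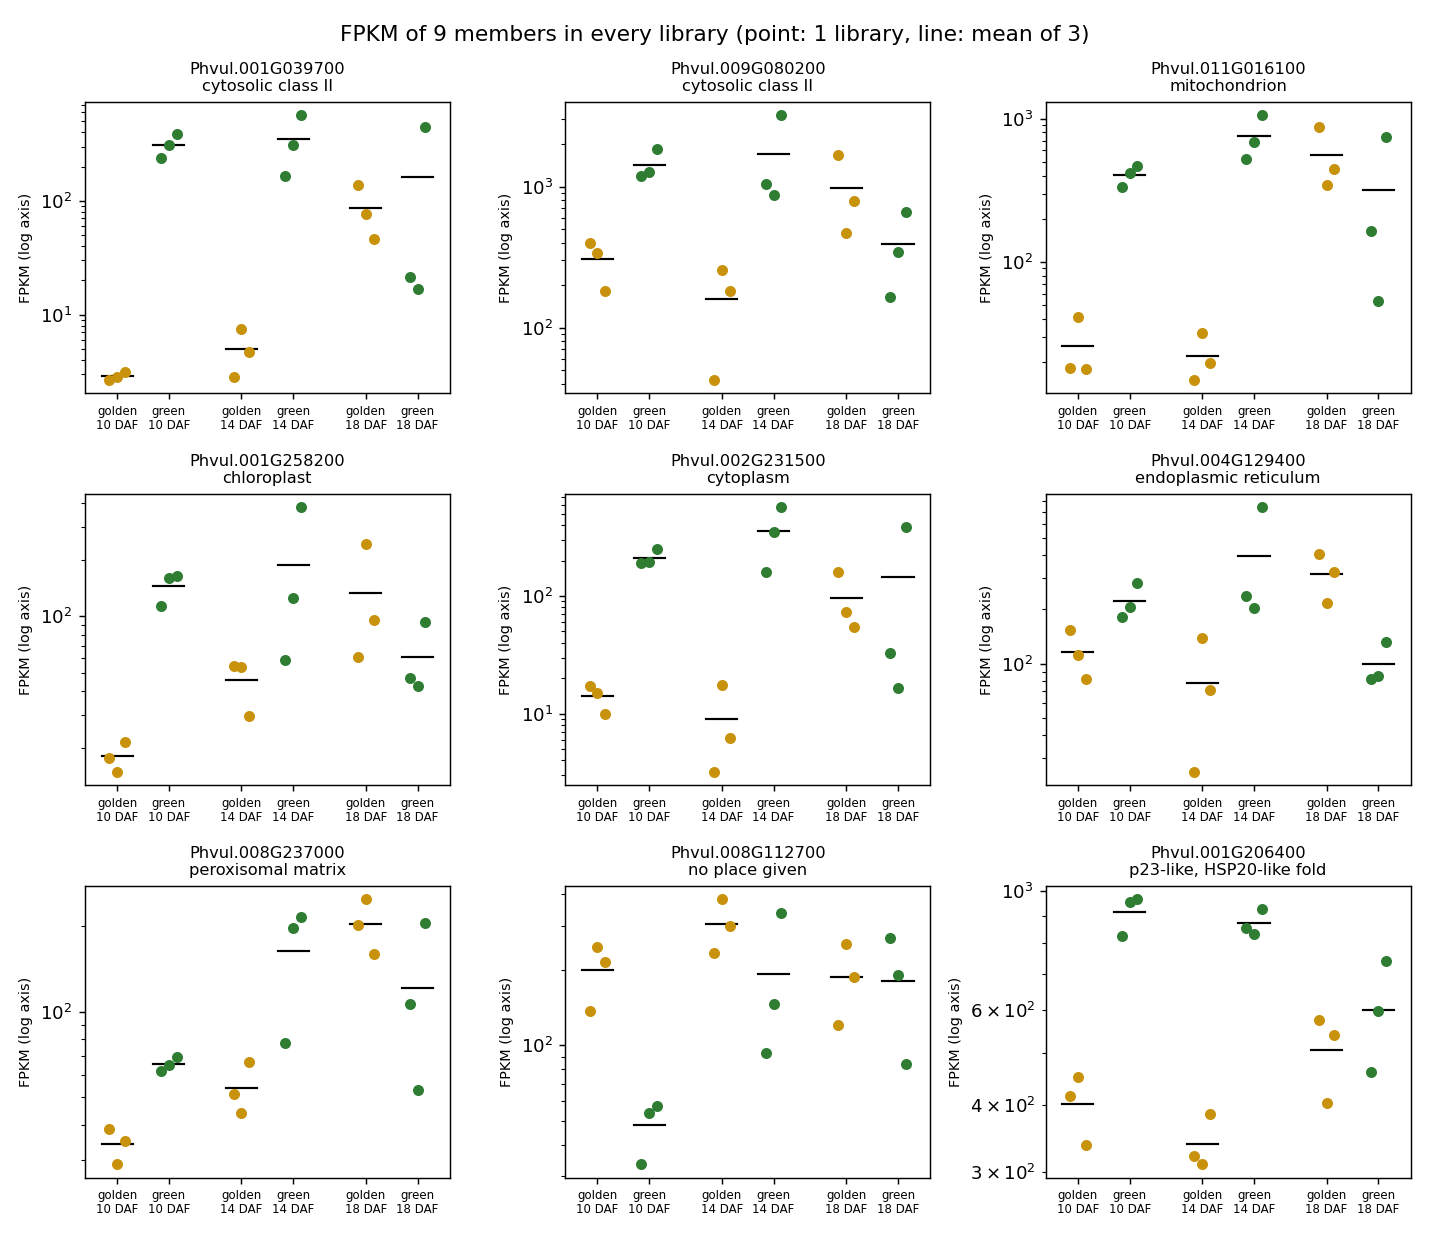
FPKM on a log axis of 9 members in every library, golden points left of green ones at each age, with a line at the mean of 3. In 8 of the 9 panels the golden points at 10 DAF lie below all green points, and at 18 DAF the colours overlap in 8.

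At 18 DAF, the oldest age, few members were called. 3 of 51 were called higher in the golden line and 2 lower, where 7.99% of all genes were higher and 6.99% lower, and the 5 calls became 3 without golden replicate 3 or green replicate 1, 1 without green replicate 2 and 8 without green replicate 3. The 3 higher calls also ended with total counts and with limma on log2(FPKM + 1) or log2(FPKM + 0.1), where 0 members were higher. The 2 lower calls also ended with only the groups compared, where 0 members were lower. Of the heat-annotated members 1 of 29 was higher and 0 lower, and 6 had an unadjusted p under 0.05, where 6585 of all 22805 genes did. Golden libraries lay wholly above green ones for 4 of the 29 and wholly below for 1, where 8.37% of all genes lay above and 17.9% below. DESeq2 called 2 higher and 1 lower. Without green replicate 3 the heat-annotated calls were 5 higher and 0 lower, and the median log2 fold change, 0.32 with all libraries, was 1.39, while without golden replicate 1 it was -0.23. Without the 3 members that met the rule through green libraries alone, the calls were 1 and 0 of 26 and the median 0.56.

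The 1 heat-annotated call was Phvul.004G129400 of the endoplasmic reticulum, which had 409, 216 and 323 FPKM in golden and 82.04, 85.1 and 131 FPKM in green pods at 18 DAF (3.44-fold higher, log2 1.78, SE 0.54, adjusted p = 0.04). At 14 DAF the same gene was among those lower in the golden line. The call ended without golden replicate 1 (adjusted p = 0.0956), golden replicate 3 (adjusted p = 0.0715), green replicate 1 (adjusted p = 0.11), green replicate 2 (adjusted p = 0.117) or green replicate 3 (adjusted p = 0.0581), in a range of 0.00576 to 0.117. The other gene of that compartment, Phvul.007G113700, had 673, 143 and 312 FPKM in golden and 28.9, 78.8 and 98.1 FPKM in green pods, without overlap, and did not pass (log2 2.58, SE 0.94, adjusted p = 0.08). Class II Phvul.001G039700 had 136, 76.3 and 46.6 FPKM in golden and 21.4, 16.7 and 448 FPKM in green pods (log2 -0.79, SE 0.90, adjusted p = 0.61). Phvul.009G080200 had 1674, 468 and 797 FPKM in golden and 166, 346 and 658 FPKM in green pods (log2 1.45, SE 0.68, adjusted p = 0.17). Mitochondrial Phvul.011G016100 had 876, 343 and 448 FPKM in golden and 164, 53.4 and 739 FPKM in green pods (log2 0.91, SE 0.68, adjusted p = 0.41). In all 3 of these, green replicate 3 was the highest green library and golden replicate 1 the highest golden one.

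The cytoplasmic Phvul.002G231500 had 161, 72.8 and 54.7 FPKM in golden and 32.6, 16.6 and 385 FPKM in green pods at 18 DAF. Phvul.002G231700 had 424, 126 and 129 FPKM in golden and 48.4, 22.98 and 447 FPKM in green pods. The joint locus of Phvul.002G231400 had 372, 184 and 169.6 FPKM in golden and 116, 95.01 and 299 FPKM in green pods. None of these 3 was called between the lines, with log2 fold changes of -0.48, 0.50 and 0.63 and adjusted p of 0.77, 0.77 and 0.51. Plastid Phvul.001G258200 had 60.6, 243 and 95.3 FPKM in golden and 47.2, 42.8 and 93.6 FPKM in green pods, and Phvul.009G046500 had 153, 196 and 152 FPKM in golden and 103, 94.4 and 72.2 FPKM in green pods, without overlap. The joint locus of Phvul.009G152400 had 166, 109.6 and 81.7 FPKM in golden and 30.1, 35.6 and 104 FPKM in green pods, and Phvul.010G125300 had 3.71, 4.09 and 4.71 FPKM in golden and 5.38, 2.04 and 26.6 FPKM in green pods. None of these 4 passed, with log2 fold changes between -1.34 and 1.27. Phvul.010G155300 of the mitochondrion had 13.8, 17.6 and 12.7 FPKM in golden and 5.54, 4.58 and 6.004 FPKM in green pods, without overlap and also not called (log2 1.58, SE 0.78, adjusted p = 0.2).

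The other 4 calls at 18 DAF were outside the heat-annotated set. Phvul.005G090600, an HSP20 family gene placed in the cytoplasm, had 7.24, 7.97 and 12.4 FPKM in golden and 26.001, 34.002 and 18.3 FPKM in green pods (2.61-fold lower, log2 -1.38, SE 0.34, adjusted p = 0.013), a call that ended without green replicate 2 (adjusted p = 0.0513), in a range of 0.00111 to 0.0703. Phvul.004G094700, higher in the golden line at 10 DAF, was lower at 18 DAF, with 0.476, 0.495 and 1.18 FPKM in golden and 1.73, 2.29 and 1.39 FPKM in green pods (log2 -1.22, SE 0.33, adjusted p = 0.021). That call ended without golden replicate 1 (adjusted p = 0.0658), golden replicate 2 (adjusted p = 0.079) or green replicate 2 (adjusted p = 0.0744), in a range of 0.00369 to 0.158. Phvul.009G053200, placed in the nucleus, had 108, 111 and 113 FPKM in golden and 78.01, 87.02 and 97.8 FPKM in green pods (log2 0.46, SE 0.12, adjusted p = 0.02), and its call ended without green replicate 1 (adjusted p = 0.078) or green replicate 2 (adjusted p = 0.0648), in a range of 6.1e-04 to 0.217. Phvul.007G157000 was the 1 member higher in the golden line at all 3 ages, at 19.5, 24.3 and 24.1 FPKM in golden and 20.1, 19.8 and 17.2 FPKM in green pods (log2 0.38, SE 0.11, adjusted p = 0.032), and its last call ended without golden replicate 2 (adjusted p = 0.0957), golden replicate 3 (adjusted p = 0.0656), green replicate 2 (adjusted p = 0.0712) or green replicate 3 (adjusted p = 0.118), in a range of 0.00442 to 0.276. Its neighbour Phvul.007G156900 had 108, 95.4 and 95.4 FPKM in golden and 93.3, 140.2 and 80.3 FPKM in green pods and was not called. Nor was the p23-type Phvul.001G206400, with 577, 404 and 540.001 FPKM in golden and 461, 599 and 741 FPKM in green pods, or Phvul.007G181300, with 1.56, 0.842 and 0.804 FPKM in golden and 1.89, 2.66 and 2.07 FPKM in green pods.

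Within the golden line, the comparison of 18 with 10 DAF asks what changes as its pods grow older. 14 of 51 members rose and 9 fell, where 11.3% of all genes rose and 9.37% fell. Of the 29 heat-annotated members 9 rose and 2 fell, with a median log2 fold change of 1.62, or 1.44 with genes listed at 0 held at their bound, against 0.01 over all genes. The total of 23 calls became 14 without replicate 1 at 10 DAF, 11 without replicate 2 at 10 DAF and 14 without replicate 1 at 18 DAF. Without this last library the heat-annotated members were 7 higher and 0 lower, with a median of 0.97. At 14 against 10 DAF edgeR called 0 members and DESeq2 called 1, where edgeR called 1.30% of all genes. An unadjusted p under 0.05 was found for 8 of the 51 members and for 4458 of all 22805 genes tested.

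The 9 heat-annotated genes that rose came from 5 annotated places. Mitochondrial Phvul.011G016100 averaged 556 ± 283 FPKM at 18 DAF and 25.7 ± 13.3 FPKM at 10 DAF (24.5-fold higher, log2 4.62, SE 0.79, adjusted p = 0.0015). Class II Phvul.001G039700 averaged 86.4 ± 45.8 FPKM at 18 DAF and 2.88 ± 0.242 FPKM at 10 DAF (34.04-fold higher, log2 5.09, SE 1.08, adjusted p = 0.0051). In the plastid, Phvul.001G258200 was 8.55-fold higher (log2 3.10, SE 0.63, adjusted p = 0.0041) and Phvul.006G046000, also an HSP21, 12.7-fold higher (log2 3.67, SE 0.81, adjusted p = 0.0063). Peroxisomal Phvul.008G237000 averaged 203 ± 44.4 FPKM at 18 DAF and 34.2 ± 4.91 FPKM at 10 DAF, with the smallest adjusted p of the heat-annotated rises (log2 2.76, SE 0.44, adjusted p = 9.9e-04). The other heat-annotated genes that rose were cytoplasmic Phvul.008G228100 (16.3-fold), Phvul.010G125300 (7.18-fold) and Phvul.002G231500 (7.79-fold) and, in the endoplasmic reticulum, Phvul.004G129400 (3.08-fold). The call of Phvul.002G231500 ended without replicate 1 at 10 DAF (adjusted p = 0.0981), replicate 2 at 10 DAF (adjusted p = 0.109), replicate 3 at 10 DAF (adjusted p = 0.124) or replicate 1 at 18 DAF (adjusted p = 0.124), in a range of 0.00277 to 0.124. That of Phvul.010G125300 ended without replicate 1 at 10 DAF (adjusted p = 0.064) or replicate 2 at 10 DAF (adjusted p = 0.0562), in a range of 2.8e-04 to 0.0640. That of Phvul.004G129400 ended without replicate 1 at 10 DAF (adjusted p = 0.0718), replicate 2 at 10 DAF (adjusted p = 0.123), replicate 3 at 10 DAF (adjusted p = 0.145), replicate 1 at 18 DAF (adjusted p = 0.13) or replicate 3 at 18 DAF (adjusted p = 0.081), in a range of 0.0107 to 0.145. The calls of the other 6 held in every fit that left out 1 library.

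The other 5 members that rose, all outside the heat-annotated set, had smaller folds, and 3 of them are placed in the nucleus. Phvul.009G053200 averaged 111 ± 2.76 FPKM at 18 DAF and 77.3 ± 4.51 FPKM at 10 DAF (log2 0.70, SE 0.12, adjusted p = 0.0019), and Phvul.006G213300 averaged 10.8 ± 0.802 FPKM and 6.95 ± 0.945 FPKM (log2 0.81, SE 0.17, adjusted p = 0.0052). The third, Phvul.007G181300, averaged 1.07 ± 0.426 FPKM at 18 DAF and 0.465 ± 0.252 FPKM at 10 DAF (log2 1.36, SE 0.44, adjusted p = 0.041), and its call ended without replicate 1 at 10 DAF (adjusted p = 0.102), replicate 2 at 10 DAF (adjusted p = 0.143) or replicate 1 at 18 DAF (adjusted p = 0.163), in a range of 0.00905 to 0.171. The p23-type Phvul.004G073200, placed in the chloroplast, averaged 22.1 ± 1.59 FPKM at 18 DAF and 15.1 ± 2.65 FPKM at 10 DAF (log2 0.73, SE 0.17, adjusted p = 0.0089). Phvul.007G157000 of the mitochondrion averaged 22.6 ± 2.70 FPKM at 18 DAF and 19.3 ± 1.01 FPKM at 10 DAF (log2 0.41, SE 0.11, adjusted p = 0.019), and its call ended without replicate 1 at 10 DAF (adjusted p = 0.0717), replicate 2 at 10 DAF (adjusted p = 0.0656) or replicate 2 at 18 DAF (adjusted p = 0.0593), in a range of 0.00139 to 0.211.

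The 9 genes that fell in the golden line were placed in the nucleus or the mitochondrion, or had no place. The 2 heat-annotated ones, Phvul.008G209700 (log2 -1.65, SE 0.45, adjusted p = 0.019) and Phvul.007G250400 (log2 -1.46, SE 0.49, adjusted p = 0.049), are placed in the nucleus. The first call ended without replicate 2 at 10 DAF (adjusted p = 0.0709), replicate 1 at 18 DAF (adjusted p = 0.0543) or replicate 2 at 18 DAF (adjusted p = 0.0534), in a range of 0.00254 to 0.0709, and the second ended whichever of the 6 libraries was left out, in a range of 0.0185 to 0.130. Among the 7 others, Phvul.007G080300 averaged 1.65 ± 0.416 FPKM at 18 DAF and 7.01 ± 1.61 FPKM at 10 DAF (log2 -1.89, SE 0.40, adjusted p = 0.0052), and Phvul.003G192400 averaged 0.633 ± 0.187 FPKM and 2.64 ± 0.559 FPKM (log2 -1.87, SE 0.47, adjusted p = 0.013). The remaining 5 were Phvul.003G276200, Phvul.005G011300, Phvul.007G156900, Phvul.008G161400 and Phvul.011G184300, with log2 fold changes between -1.52 and -0.50. Each of these 5 lost its call in at least 1 fit that left out a library.

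At 18 against 14 DAF in the golden line 11 members rose and 3 fell, where 5.69% of all genes rose and 4.95% fell, and 8 of the rises were heat-annotated. The largest called rise was that of Phvul.011G016100 (28.8-fold, log2 4.85, SE 0.80, adjusted p = 0.0045). These 14 calls became 3, 4 and 8 without replicates 1, 2 and 3 at 14 DAF and 2 without replicate 1 at 18 DAF.

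**Figure D4:**
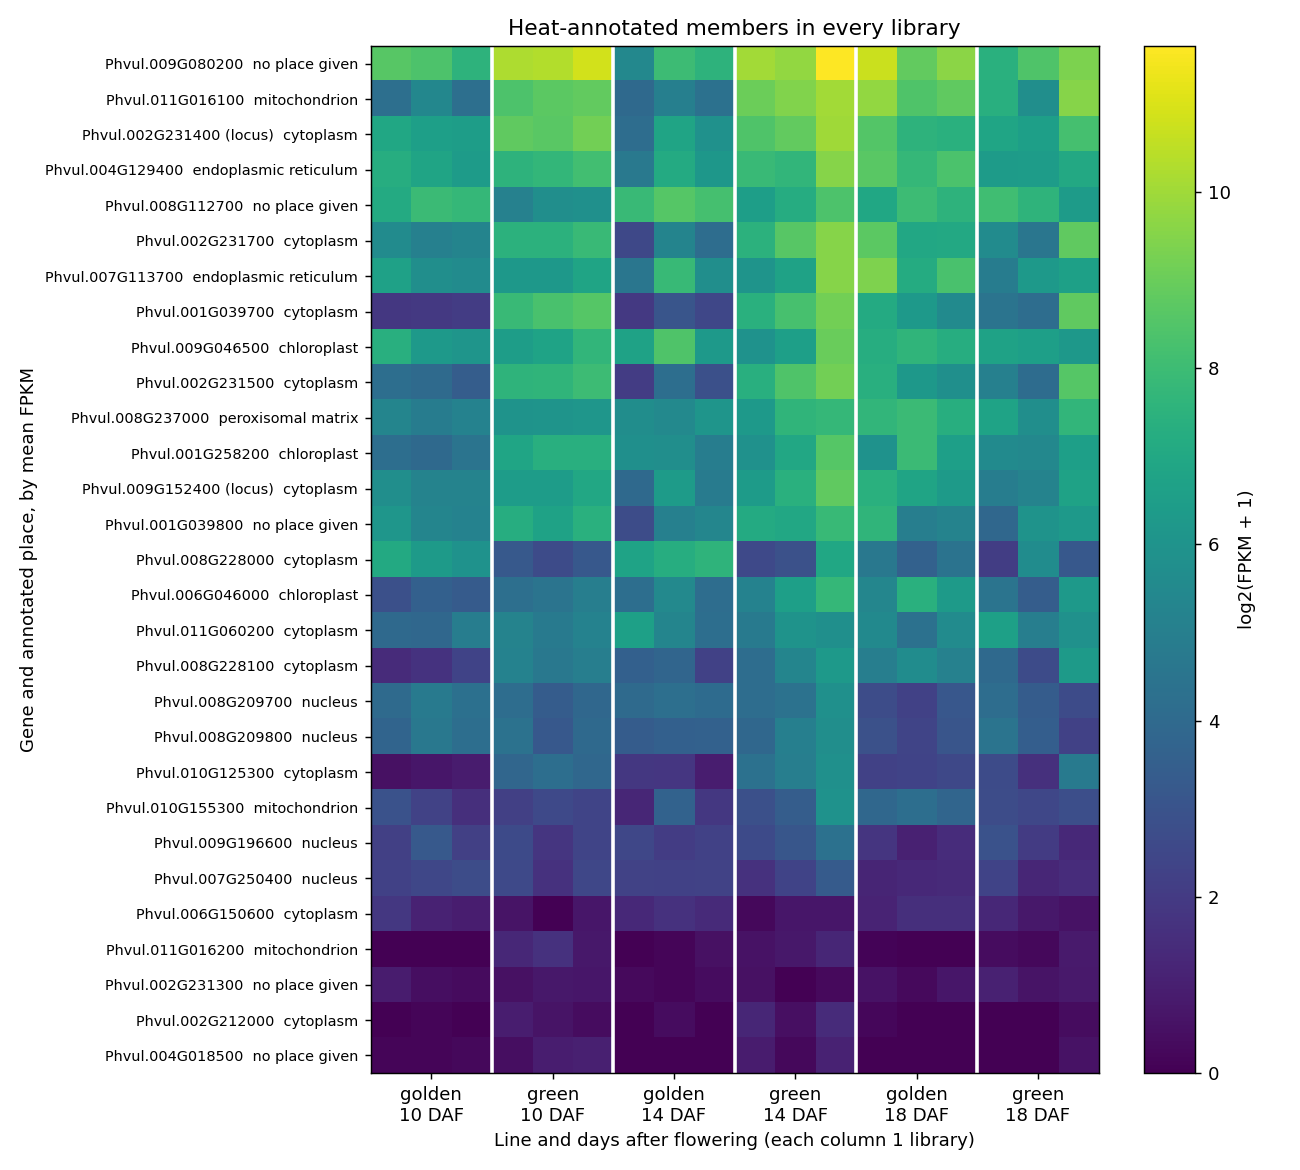
log2(FPKM + 1) of the 29 heat-annotated members in each of the 18 libraries, sorted by mean FPKM, golden left of green at each age. Most of the abundant genes at the top are lighter (higher) in green pods at 10 and 14 DAF, and replicate 3 of the green line at 14 DAF is the highest of its group for 27 of the 29.

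Few members were called in the green line. At 18 against 10 DAF 5 of 51 members rose and 1 fell, where 19.3% of all genes rose and 15.6% fell, and of the heat-annotated members 1 rose and 0 fell. The rise was Phvul.008G112700, which averaged 181 ± 91.8 FPKM at 18 DAF and 48.1 ± 12.8 FPKM at 10 DAF (log2 1.97, SE 0.47, adjusted p = 0.0051). Without replicate 3 at 18 DAF, however, 14 members were called, 5 higher and 9 lower, and 8 of the 9 that were lower were heat-annotated. That library held Phvul.001G039700 at 448 FPKM, where the other 2 green libraries of that age held 21.4 and 16.7. It was high also in the heat shock factor Phvul.009G078300, picked after values were seen, at 97.5 FPKM against 15.7 and 9.82 in the others. Not all heat shock factors followed. Phvul.003G135400 stood at 17.2 FPKM there against 23.7 and 13.1, and Phvul.004G163300 at 10.1 FPKM against 7.03 and 35.2. At 14 against 10 DAF 4 green members rose and 0 fell, where 5.09% of all genes rose and 3.19% fell. Those calls became 0 without any 1 of the 6 libraries but replicate 1 at 14 DAF, without which they became 14. At 18 against 14 DAF 1 member, Phvul.004G129400, fell and 0 rose, where 3.95% of all genes rose and 3.01% fell. That count was 0 without replicate 1 or 3 at 14 DAF or replicate 2 at 18 DAF, 2 without replicate 2 at 14 DAF or replicate 1 at 18 DAF, and 10 without replicate 3 at 18 DAF.

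Whether the change from 10 to 18 DAF differed between the lines was tested as the golden change minus the green change. 14 of 51 members differed, 9 with the golden change above the green one and 5 with it below, where 9.90% of all genes differed in either direction, 3.77% upward and 6.13% downward. Of the heat-annotated members 7 of 29 differed, all with the golden change above the green one, with a median difference of 2.49 on the log2 scale where the median over all genes was 0. Without the 3 members that met the rule through green libraries alone, 7 of 26 differed, with a median of 2.46. Class II Phvul.001G039700 (log2 5.94, SE 1.38, adjusted p = 0.016), mitochondrial Phvul.011G016100 (log2 4.88, SE 1.01, adjusted p = 0.0086) and plastid Phvul.001G258200 (log2 4.27, SE 0.85, adjusted p = 0.007) were called in every fit that left out 1 library. The 14 calls became 6 to 9 when replicate 2 or 3 of either line at 10 DAF, golden replicate 1 at 18 DAF, or green replicate 1 or 2 at 18 DAF was left out, and 23 without green replicate 3 at 18 DAF.

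Across the 6 groups the mean level was highest in green pods at 14 DAF for 20 of the 29 heat-annotated members and for 13 of the other 22. In that group replicate 3 was the highest library for 27 of the 29. Peaks were not counted without that library, nor over all genes, so these counts are descriptions only. Golden pods at 14 DAF were highest for 3 heat-annotated members, among them both genes that were higher in golden pods at 10 DAF, and 0 members were highest in golden pods at 10 DAF. 20 of the 51 members were called in none of the 3 comparisons of the lines, and 11 in none of the 10 comparisons made. These counts too were not made over all genes. The lowest members stayed near the detection limit. Phvul.002G212000 reached at most 0.289 FPKM in golden and 1.70 FPKM in green pods, Phvul.006G150600 at most 2.68 FPKM in golden and 1.48 FPKM in green pods, and Phvul.002G231300 at most 0.858 FPKM in golden and 1.13 FPKM in green pods. Phvul.004G018500 was listed at 0 in all golden libraries at 14 DAF, against 0.834, 0.185 and 1.17 FPKM in green ones, a level at least 27.1-fold lower on a floor of 3 counts over the golden libraries. It met the rule through green libraries alone, so its low golden level is in part set by the rule and shows no difference of the lines by itself.

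Heat shock factors, the transcription factors that bind heat shock elements in front of these genes, were called in both directions at 10 and 14 DAF, as all genes were. Of 24 tested, 6 were higher and 4 lower in the golden line at 10 DAF (25% and 16.7%, where all genes had 17.1% and 15.5%), and 6 and 6 at 14 DAF (25% each, where all genes had 20.4% and 21.2%). At 18 DAF edgeR called 0 and 0, where 4 had an unadjusted p under 0.05 and DESeq2 called 1 lower. Over all genes, 6585 of 22805 had an unadjusted p under 0.05 at that age. Lower in golden pods were 2 of the 4 genes of HSFA2, which in Arabidopsis prolongs the response to heat. Phvul.009G078300 had 0.502, 0.986 and 1.23 FPKM in golden and 13.4, 13.3 and 16.2 FPKM in green pods at 10 DAF (log2 -3.96, SE 0.82, adjusted p = 0.0024), and 5.78, 5.82 and 3.21 FPKM in golden and 43.7, 40.8 and 71.6 FPKM in green pods at 14 DAF (log2 -3.40, SE 0.78, adjusted p = 0.0035). Phvul.003G135200 had 3.67, 6.45 and 4.84 FPKM in golden and 15.1, 16.2 and 14.6 FPKM in green pods at 10 DAF (log2 -1.61, SE 0.56, adjusted p = 0.039). The other HSFA2 genes, Phvul.003G135400 and Phvul.001G037000, were not called at any age. They, and HSFA1D below, are named after their values were seen. Phvul.007G174800 (HSFA6B) and Phvul.004G119600 (HSFB2A) were also lower at 10 DAF, with log2 fold changes of -2.40 and -0.87.

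Higher in golden pods at 10 DAF were HSFA8 Phvul.002G322700, at 10.99 ± 2.26 FPKM in golden and 3.06 ± 0.537 FPKM in green pods (log2 1.85, SE 0.23, adjusted p = 5.5e-05), and Phvul.007G278200 of HSFA6B, at 8.84 ± 0.640 FPKM in golden and 3.03 ± 0.435 FPKM in green pods (log2 1.55, SE 0.31, adjusted p = 0.0019). Phvul.007G223401 (HSFA3), both HSFA4A genes, Phvul.006G171700 and Phvul.002G242000, and Phvul.002G040500 (heat shock factor 3) were higher too, with log2 fold changes from 0.66 to 1.83. The HSFA1D genes Phvul.002G138500 and Phvul.003G283300, whose Arabidopsis counterparts start the response to heat, were not called at any age, with log2 fold changes from -0.08 to 0.28.

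Genes of the chaperones that take over the clients of small heat shock proteins were mostly called lower in golden pods at 10 and 14 DAF. Of 19 tested HSP70 genes 1 was higher and 12 lower at 10 DAF, of 6 HSP90 genes 0 and 6, and of 6 HSP100 genes 1 and 4, where 17.1% of all genes were higher and 15.5% lower. At 14 DAF the counts were 1 and 10 for HSP70, 0 and 5 for HSP90 and 1 and 4 for HSP100, and at 18 DAF 1 and 2, 0 and 0, and 1 and 0. For HSP90 at 18 DAF, 0 of 6 genes had an unadjusted p under 0.05, where 6585 of all 22805 genes did, and DESeq2 called 0. HSP101 Phvul.004G044100, the cytosolic disaggregase, had 1.14, 0.948 and 1.13 FPKM in golden and 13.3, 20.03 and 14.6 FPKM in green pods at 10 DAF (log2 -3.88, SE 1.04, adjusted p = 0.011), and 1.59, 2.67 and 1.36 FPKM in golden and 52.2, 43.04 and 91.7 FPKM in green pods at 14 DAF (log2 -5.06, SE 1.09, adjusted p = 0.0024). HSP70 Phvul.011G065000 stood at 23.8 ± 7.72 FPKM in golden and 294 ± 48.9 FPKM in green pods at 10 DAF (log2 -3.62, SE 0.49, adjusted p = 1.2e-04). The HSP100 gene that went the other way was ClpB3, Phvul.004G034000, a disaggregase of the plastid, at 18.7 ± 3.24 FPKM in golden and 7.14 ± 0.663 FPKM in green pods at 10 DAF (log2 1.40, SE 0.17, adjusted p = 4.9e-05). It was higher at 14 and 18 DAF as well. Of 116 DnaJ genes, co-chaperones of HSP70, 24 were higher and 16 lower at 10 DAF, 25 and 21 at 14 DAF and 14 and 6 at 18 DAF. Those shares, 20.7% and 13.8%, 21.6% and 18.1%, and 12.1% and 5.17%, stand beside 17.1% and 15.5%, 20.4% and 21.2%, and 7.99% and 6.99% of all genes.

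**Figure D5:**
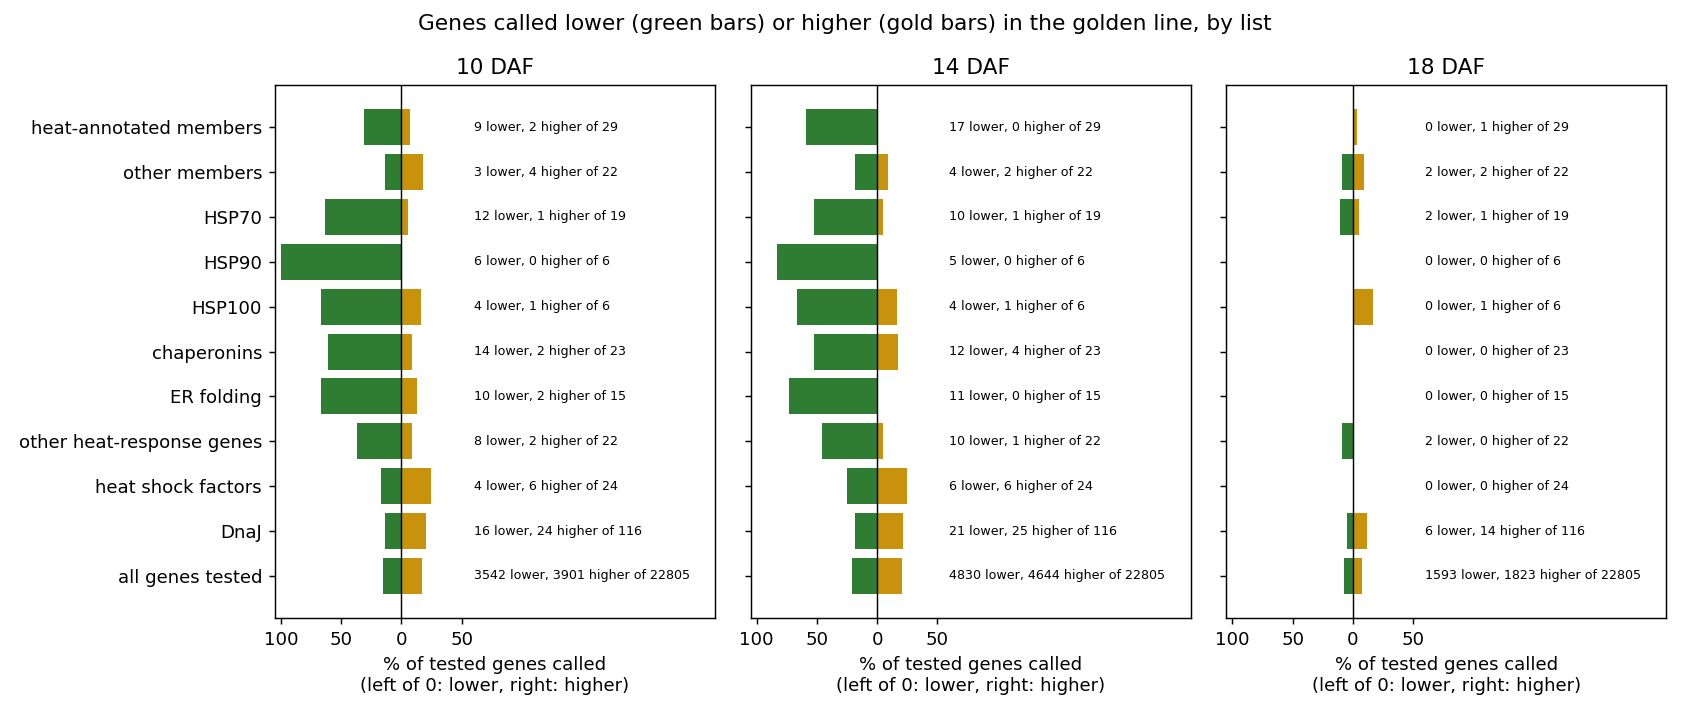
Share of the tested genes of each list called lower (bars left of 0) or higher (right of 0) in the golden line at 10, 14 and 18 DAF, with the counts beside the bars. HSP70, HSP90, HSP100 and heat-annotated members lie mainly left of 0 at 10 and 14 DAF, and at 18 DAF few of their genes are called. Of the 116 DnaJ genes 14 are higher and 6 lower at 18 DAF.

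Genes of seed tissue, which a pod sample can hold, and genes of the carpel and pod itself were summed. The 55 late embryo and storage protein genes summed to 1891 to 1986 FPKM in golden and 1466 to 1554 FPKM in green pods at 10 DAF, 2099 to 2992 and 2331 to 2448 at 14 DAF, and 2183 to 2216 and 1953 to 2355 at 18 DAF, golden before green, with 30 of the 55 over 1 FPKM in each group and 0 at zero everywhere. At 10 DAF this sum was higher in the golden line, where the heat-annotated sum was lower. The 27 carpel and pod MADS-box genes summed to 890 to 944 FPKM in golden and 593 to 706 FPKM in green pods at 10 DAF, with 13 and 16 of them over 1 FPKM. The part of either in the results was not tested.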

How the data were processed

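Poly(A) RNA of 18 pod wall libraries was sequenced in read pairs on an Illumina instrument, per the labels' protocols, with 3 libraries for each line and age. The authors deposited 1 table of FPKM values per gene and library, and it also holds estimated counts, which the authors deposited as whole numbers. Which aligner, counter and build made them was not given in the sources used here. FPKM served for levels and counts for tests. The 635 entries without a gene name, which held 2.20% to 3.97% of each library's counts, were kept in the fit. Those that passed the filter on low counts are part of the shares given for all genes.

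Counts were fitted with edgeR 4.0.16 in R 4.3.3, in 1 model of all 6 groups with TMM scaling and edgeR's filter on low counts, which kept 22805 of 25124 genes and all 51 members. The quasi-likelihood test was run for 10 comparisons, with Benjamini-Hochberg adjustment over the 22805 genes in each, and a gene was called at an adjusted p under 0.05. The model had 12 residual degrees of freedom and a common dispersion of 0.155, and its code was tested on simulated data. Standard errors (SE) were derived from the test's F statistic. Values after ± are SDs of 3 libraries. Where all libraries of a group were at 0 the fold is a bound from a floor of 3 counts over the group, which covers counting error only.

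No 2 libraries of a group agreed within sampling noise, the smallest chi-square being 51.3 per gene. Over all genes with at least 10 counts in at least 3 libraries, replicate numbers did not pair the libraries: deviations of same-numbered libraries correlated between -0.164 and 0.159, with all pairs over 0.1 in 0 of 15 pairs of groups. Among the heat-annotated members, green replicate 3 was the highest most often at each age. Pairing within these members was not tested. Alternatives were DESeq2 1.42.0 size factors, total counts, the DESeq2 Wald test, no filter, at least 5 FPKM in a group, a 2-fold minimum, limma 3.58.1 on log2(FPKM + 1) and log2(FPKM + 0.1), a replicate block, only the groups compared, and each library left out.

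The members, lists and tests were chosen with earlier results of these data known. Patterns that kept other genes out of the chaperone lists were narrowed on descriptions after the table was seen. Values in every library are given for members among the 12 highest, the 8 smallest adjusted p of each comparison of the lines, the highest of each described class and the lowest and highest fold. Other members are named where a count or a neighbour calls for it.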

Additional observations from a re-analysis of the deposited data

Results flagged for a closer look

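For 14 of the 51 members the change from 10 to 18 DAF differed between the lines by a test of the difference itself (golden change minus green change, log2 scale, edgeR quasi-likelihood test). The class II gene Phvul.001G039700 differed by 5.94 (SE 1.38, adjusted p = 0.016) and Phvul.009G080200 of the same class by 3.65 (SE 0.97, adjusted p = 0.029). The mitochondrial Phvul.011G016100 differed by 4.88 (SE 1.01, adjusted p = 0.0086) and the plastid Phvul.001G258200 by 4.27 (SE 0.85, adjusted p = 0.0070). Cytoplasmic Phvul.008G228100 differed by 3.79, the joint locus of Phvul.002G231400, Phvul.002G231600 and Phvul.002G231800 by 2.84, and Phvul.004G129400 of the endoplasmic reticulum by 2.72. Outside the heat-annotated members, Phvul.006G213300 differed by 1.10 and the p23-type Phvul.001G206400 by 1.06.

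In 5 members, all outside the heat-annotated set, the golden change was the lower one. The difference was -2.41 for Phvul.003G192400, -2.30 for Phvul.004G094700, -2.23 for Phvul.005G090600, -1.71 for Phvul.003G276200 and -0.82 for Phvul.007G156900. The differences of Phvul.001G039700, Phvul.001G258200, Phvul.004G094700, Phvul.005G090600, Phvul.006G213300 and Phvul.011G016100 were called in every fit that left out 1 library, and those of the other 8 were not.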

How the results depend on the processing

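At 10 DAF 18 members were called, and 32 with only the groups compared. At 14 DAF 23 were called, and every alternative stayed within 1.5 times. At 18 DAF the 5 calls became 10 with DESeq2, 3 with a 2-fold minimum and 2 with only the groups compared. The split at 18 DAF was 3 higher and 2 lower, but 0 and 4 with total counts, a scaling that moved the median of all genes by -0.11 in that comparison. It was also 0 and 4 with limma on log2(FPKM + 1) and 0 and 5 with limma on log2(FPKM + 0.1). The 6 calls of the green line at 18 against 10 DAF became 3 with a 2-fold minimum and 10 and 11 with limma on log2(FPKM + 1) and log2(FPKM + 0.1). DESeq2 called 24 members against 14 for the difference of the changes, 1 against 0 for the golden line at 14 against 10 DAF, 25 against 14 for the golden line at 18 against 14 DAF, 15 against 4 for the green line at 14 against 10 DAF and 10 against 1 for the green line at 18 against 14 DAF. With only the groups compared, the golden line at 18 against 14 DAF had 2 calls and the green line 0. The green line at 18 against 14 DAF also had 0 calls without the low-count filter and 3 with limma on log2(FPKM + 1). With a replicate block the calls were 17, 20 and 4 at 10, 14 and 18 DAF, 2 for the green line at 14 against 10 DAF and 0 for it at 18 against 14 DAF, and the other counts stayed within 1.5 times. With 1 library left out, calls ranged from 14 to 17 at 10 DAF, 17 to 26 at 14 DAF and 1 to 8 at 18 DAF. In the golden line they ranged from 11 to 20 at 18 against 10 DAF, 2 to 12 at 18 against 14 DAF and 0 to 0 at 14 against 10 DAF. In the green line they ranged from 4 to 14 at 18 against 10 DAF, 0 to 14 at 14 against 10 DAF and 0 to 10 at 18 against 14 DAF, and for the difference of the changes from 6 to 23. The cause of these shifts was not tested. No called member fold changed direction in any alternative.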

Other observations

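Most of the called genes of 2 other lists of folding machinery were lower in the golden line at 10 and 14 DAF, where 15.5% and 21.2% of all genes were lower and 17.1% and 20.4% higher. At 18 DAF 6.99% of all genes were lower and 7.99% higher, and 6585 of 22805 had an unadjusted p under 0.05. Of 23 chaperonin genes 2 were higher and 14 lower at 10 DAF, 4 and 12 at 14 DAF, and 0 and 0 at 18 DAF, where 7 had an unadjusted p under 0.05 and DESeq2 called 3 higher and 1 lower (edgeR quasi-likelihood test, Benjamini-Hochberg adjustment over all genes). HSP60 Phvul.007G135100, which folds proteins imported into mitochondria, averaged 24.2 ± 4.11 FPKM in golden and 136 ± 21.3 FPKM in green pods at 10 DAF (SD, n = 3 each, log2 fold change -2.48, SE 0.36, adjusted p = 1.9e-04). Of 15 genes of protein folding in the endoplasmic reticulum 2 were higher and 10 lower at 10 DAF, 0 and 11 at 14 DAF, and 0 and 0 at 18 DAF, where 5 had an unadjusted p under 0.05 and DESeq2 called 1 higher and 1 lower. Calnexin 1 Phvul.002G280200, a chaperone of glycoproteins, averaged 95.9 ± 17.8 FPKM in golden and 310 ± 38.3 FPKM in green pods at 10 DAF (log2 fold change -1.68, SE 0.23, adjusted p = 1.2e-04). A protein disulfide isomerase, PDI-like 1-1 Phvul.009G126700, averaged 8.22 ± 0.396 FPKM in golden and 51.8 ± 4.87 FPKM in green pods (log2 fold change -2.65, SE 0.40, adjusted p = 2.9e-04).

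Of 22 other genes of the response to heat 2 were higher and 8 lower at 10 DAF, 1 and 10 at 14 DAF and 0 and 2 at 18 DAF. The shares lower were 36.4%, 45.5% and 9.09%, beside 15.5%, 21.2% and 6.99% of all genes. The shares higher were 9.09%, 4.55% and 0%, beside 17.1%, 20.4% and 7.99% of all genes. At 18 DAF the share lower was thus near that of all genes. The rotamase Phvul.010G024500 (FKBP 1), a prolyl isomerase, averaged 31.4 ± 3.59 FPKM in golden and 193 ± 29.7 FPKM in green pods at 10 DAF (log2 fold change -2.61, SE 0.41, adjusted p = 3.7e-04). At 18 DAF it averaged 106 ± 25.6 FPKM in golden and 105 ± 79.4 FPKM in green pods and was not called.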
